A study of Mus musculus with 28 samples.

Results

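Lgr5-high and Lgr5-low cells of the small intestine of mice on a cystine diet were compared across all expressed genes. The comparison takes 7 Lgr5-high and 7 Lgr5-low libraries, 14 of the 28 of the series, and was chosen by population and diet label alone. The other 14 libraries hold the same populations on a control diet. Lgr5 encodes a receptor for R-spondins that marks the stem cells at the base of intestinal crypts, and all groups carry the Lgr5-GFP genotype, in which a fluorescent protein reports the gene. Cystine is made of a pair of cysteines joined by a disulfide bond. The labels give no strain, age, sex, amount of cystine or duration of feeding, nor whether each library is a different animal; every p-value below therefore rests on library-to-library spread, which may be technical. The extraction protocol in the labels names organoids as the RNA source while the series' design text speaks of isolated populations of the small intestine, and this was not settled here.

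In the crypt, stem cells at the base are kept dividing by Wnt signals. Their daughters move upward and become absorptive enterocytes or cells of the secretory lineages: goblet cells that make mucus, enteroendocrine cells that release hormones, chemosensory tuft cells and antimicrobial Paneth cells, which stay between the stem cells. Secretory cells hold large amounts of endoplasmic reticulum (ER), where proteins for export are folded. A gate on the reporter divides cells by Lgr5 level and not by cell type. The level of Lgr5 itself therefore tests the gate and is no finding.

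Total counts were 2.75 to 14.9 M (mega-counts) in the Lgr5-high libraries (median 5.32 M) and 4.11 to 21.5 M in the Lgr5-low libraries (median 14.8 M). The means were 6.84 ± 4.40 M and 13.6 ± 6.24 M (SD, n = 7 each), or -1.05 on the log2 scale, Lgr5-high minus Lgr5-low (exact permutation test, two-sided, p = 0.0513). Libraries under 5 M counts were Lgr5-high replicates 2, 3 and 6 and Lgr5-low replicate 1. Lgr5-high replicate 1 stood apart: it was the deepest of its group and also the only one without a high level of macrophage transcripts. Judged by Xist, replicates 1 and 2 of both populations were from males and the other 10 libraries from females. These facts are set beside the results they touch.

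Of 12495 genes tested, 138 (1.1%) were higher and 192 (1.54%) lower in Lgr5-high than in Lgr5-low cells on cystine diet (edgeR quasi-likelihood test, Benjamini-Hochberg adjusted p below 0.05). This is the test behind every adjusted p below unless another tool is named, and levels are CPM (counts per M counts) scaled by TMM factors. The median log2 fold change of all genes was -0.04. The balance of the directions turned with the setting: 308 genes were higher and 277 lower with DESeq2, 147 and 147 with DESeq2's size factors in edgeR, 362 and 284 with only the cystine libraries of at least 5 M counts, 242 and 202 with the cystine libraries alone and a replicate block, and 266 and 177 within the female libraries. A change of at least 1 on the log2 scale was found in 91 of the higher and 107 of the lower genes. The 7 Lgr5-high libraries all lay above the 7 Lgr5-low libraries in 41 of the higher genes, and all below them in 62 of the lower genes. Over all genes tested, such complete separation occurred in 0.56% upward and 0.736% downward. Called members of the stem cell and macrophage lists stood among the higher genes, and genes of goblet and enteroendocrine cells and of ER folding among the lower ones.

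**Figure D1:**
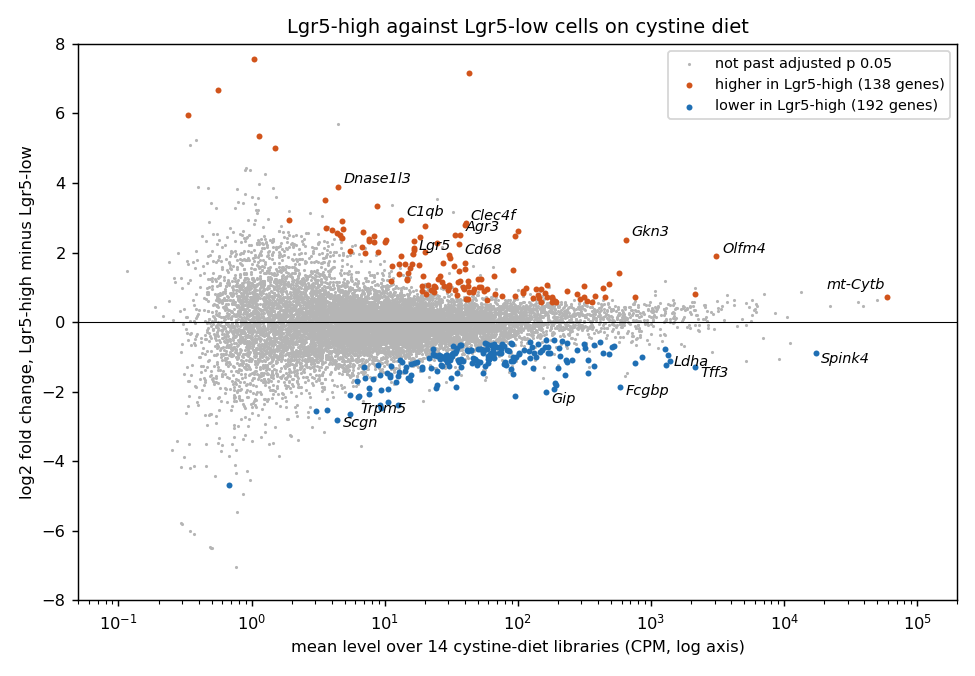
Each point is 1 of 12495 genes: the x axis is its mean level over the 14 cystine-diet libraries (CPM, log axis) and the y axis its log2 fold change, Lgr5-high minus Lgr5-low. Orange points are the 138 genes called higher and blue points the 192 called lower; Agr3 and Olfm4 lie among the higher genes, Fcgbp and Gip among the lower.

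The gate could be read in Lgr5 (chr10:115450311-115587780, GRCm38), which ran from 16.2 to 35.3 CPM in Lgr5-high libraries (median 22.4) and from 2.70 to 10.9 in Lgr5-low libraries (median 7.18). The groups did not overlap, and the log2 fold change was 1.96 ± 0.42 (SE, adjusted p = 0.00614). Among the other crypt base stem cell genes the clearest was Agr3 (chr12:35925620-35949736), a member of the protein disulfide isomerase family. It stood at 33.5 to 83.8 CPM (median 66.9) in Lgr5-high and 7.99 to 21.0 CPM (median 10) in Lgr5-low libraries. Its log2 fold change of 2.51 ± 0.28 had the lowest p of all genes (adjusted p = 6.27e-07).

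Olfm4 (chr14:79984081-80023139), a secreted glycoprotein of crypt base cells, ran from 3383 to 6824 CPM (median 4471) against 788 to 1816 CPM (median 1440). The populations were separate in every library (log2 fold change 1.89 ± 0.25, adjusted p = 1.86e-05). Rgmb (chr17:15803188-15831039), a coreceptor for bone morphogenetic proteins, measured 49 to 79.3 CPM (median 56.7) against 9.09 to 26.4 CPM (median 19.8), again with no overlap (1.69 ± 0.23, adjusted p = 2.43e-05). Ascl2 (chr7:142966829-142969264), the transcription factor that maintains the stem cell state, measured 23.0 to 69.8 CPM (median 46.5) against 6.66 to 18.4 CPM (median 14.3). It too was separate in every library (1.83 ± 0.32, adjusted p = 0.000935).

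All 30 members of the crypt base stem cell list passed the filter on low counts, and 12 were called higher and 0 lower (median log2 fold change 0.92, against -0.04 for all genes). All 30 log2 fold changes were positive, from 0.17 to 2.51, and 7 members were separate in every library, meaning that the 7 values of a population did not overlap with those of the other. In bulk libraries such as these, fewer cells of a type and less RNA of its genes per cell cannot be told apart. Beside the genes above, the called members were Soat1, which esterifies cholesterol (1.23, adjusted p = 0.00157), the chloride-importing transporter Slc12a2 (0.89, adjusted p = 0.0143), the water channel Aqp4 (1.02, adjusted p = 0.0275), Clca3b (1.03, adjusted p = 0.0417), Cdca7 (0.83, adjusted p = 0.0422), Rnf43 and Gkn3. Gkn3, named here after its values were seen, ran from 499 to 1987 CPM in Lgr5-high and 66.7 to 547 CPM in Lgr5-low libraries (2.37 ± 0.56, adjusted p = 0.0213). Its highest Lgr5-low value overlapped with the lowest Lgr5-high value, and its call held in 10 of 14 fits that each left out 1 library. The count of called members was 7 without Lgr5-high replicate 2 or without Lgr5-low replicate 6. It was 13 within the female and 1 within the male libraries. These fits also held the control-diet libraries of the same sex class, and their contrasts took 10 and 4 cystine libraries.

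Wnt target and feedback genes were higher in part: 4 of 16 tested members were called higher, 0 lower, and the median log2 fold change was 0.87. Of the 23 genes listed, 7 did not pass the filter. Rnf43 (chr11:87662722-87735539), a ubiquitin ligase that removes Wnt receptors, measured 23.9 to 47.8 CPM against 7.63 to 21.2 CPM and was separate in every library (1.04 ± 0.25, adjusted p = 0.0171). That call was lost without Lgr5-high replicate 2 (adjusted p = 0.0691) and without Lgr5-low replicate 6 (adjusted p = 0.0542). Sfrp5, a secreted Wnt antagonist, ran from 10.4 to 39.0 CPM against 1.15 to 17.7 CPM (1.67 ± 0.47, adjusted p = 0.0455). Its call held in 3 of 14 fits that each left out 1 library. Ascl2 and Lgr5 completed the 4, both also in the stem cell list, so the Wnt count is not a separate body of evidence.

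Division genes were not called in either direction: 0 of 29 S phase genes (median log2 fold change 0.04) and 0 of 25 mitosis genes (median 0.16) passed. In the S phase list 18 were positive and 11 negative, and in the mitosis list 21 and 4. DESeq2 called 1 S phase and 2 mitosis genes higher. With only the cystine libraries of at least 5 M counts these counts were 1 and 3. Leaving out 1 library gave 0 to 1 calls in each list. Mki67, a marker of cycling cells, averaged 143 CPM in Lgr5-high and 149 CPM in Lgr5-low libraries (log2 fold change -0.06 ± 0.33, adjusted p = 0.966). Rrm2, a subunit of ribonucleotide reductase, had the lowest p of the S phase list, at 43.3 to 83.0 CPM against 58.5 to 124 CPM (-0.62 ± 0.19, adjusted p = 0.0648). The replication genes Pola1 (0.71), Prim1 (0.63) and Rfc4 (0.56) had adjusted p-values of 0.0972, 0.109 and 0.134. In the mitosis list Ccnb1, the cyclin of mitotic entry, measured 278 to 541 CPM against 219 to 371 CPM (0.58 ± 0.18, adjusted p = 0.0648), and Prc1, Nusap1 and Cdk1 had log2 fold changes of 0.54, 0.56 and 0.48 without passing (adjusted p = 0.0705, 0.118 and 0.205).

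**Figure D2:**
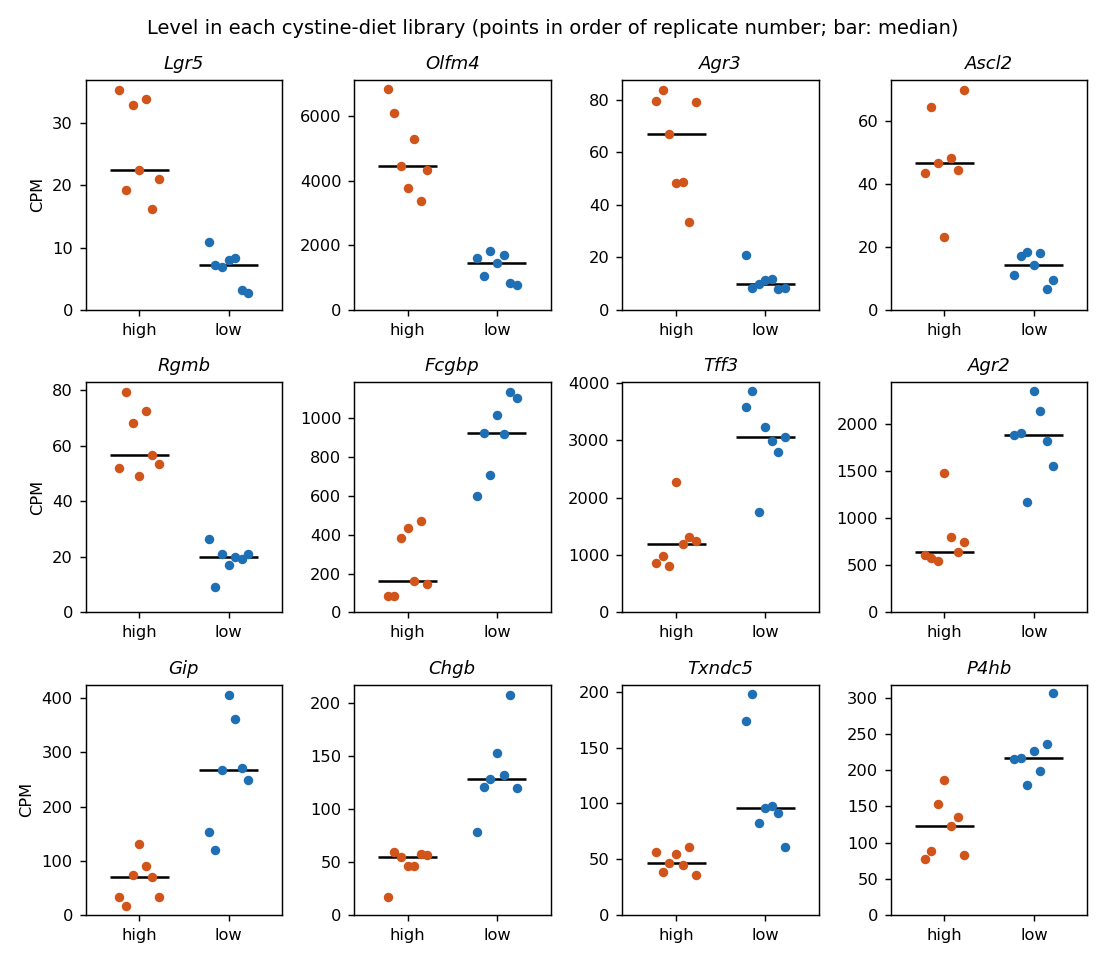
Levels (CPM, y axis) of 12 genes in each cystine-diet library, Lgr5-high in orange and Lgr5-low in blue, 7 points each; the bar is the median. The stem cell genes Lgr5, Olfm4, Agr3, Ascl2 and Rgmb are separate between populations in every library, while Agr2, Tff3, Gip and P4hb each have 1 Lgr5-high library within the Lgr5-low range.

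Goblet cell genes were called in 1 direction. Of 22 tested members, 9 were called lower and 0 higher, all 22 log2 fold changes were negative, and the median was -1.27. Fcgbp (chr7:28071236-28120862), a protein of the mucus gel, measured 83.0 to 472 CPM (median 163) in Lgr5-high against 601 to 1132 CPM (median 923) in Lgr5-low libraries. The libraries were separate (log2 fold change -1.86 ± 0.35, adjusted p = 0.00330). Txndc5 (chr13:38500079-38528824), an ER oxidoreductase, measured 35.9 to 60.8 CPM (median 46.3) against 61.1 to 198 CPM (median 96.0), a narrow separation at its nearest values (-1.24 ± 0.21, adjusted p = 0.000722).

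Agr2 (chr12:35992907-36004087), the disulfide isomerase needed to fold mucin, measured 551 to 1476 CPM (median 642) against 1172 to 2355 CPM (median 1880). Only Lgr5-high replicate 4 reached the Lgr5-low range (-1.25 ± 0.25, adjusted p = 0.00330). The same was seen in Tff3 (chr17:31125306-31129646), a trefoil peptide of mucus, with 816 to 2279 CPM (median 1187) against 1750 to 3859 CPM (median 3056; -1.29 ± 0.28, adjusted p = 0.00614). Muc2, the main gel-forming mucin, averaged 85.6 CPM against 298 CPM (-1.80, adjusted p = 0.0145), and Clca1, a mucus protease, averaged 77.0 CPM against 294 CPM (-1.94, adjusted p = 0.0171). The other called members were Slc12a8 (-1.0), Spink4 (-0.88) and Rep15 (-0.64). The goblet count was 3 without the libraries under 5 M counts, with a median of -1.09. With only the cystine libraries of at least 5 M counts it was 8, with a median of -1.09. It was 5 without the replicate 1 pair and 7 within each sex class.

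Enteroendocrine hormone genes had the most negative median of all 42 lists. Of 11 tested members 3 were called lower, all 11 were negative and the median was -1.57, and 5 of the 16 listed genes did not enter the test. Gip (chr11:96024545-96030831), the incretin of duodenal K cells, measured 16.1 to 130 CPM (median 69.6) against 120 to 405 CPM (median 268), with 6 of 7 Lgr5-high libraries below the lowest Lgr5-low library (-2.03 ± 0.44, adjusted p = 0.0113). Tac1 (chr6:7554879-7565834), the precursor of substance P, measured 1.41 to 7.85 CPM against 10.8 to 25.3 CPM and was separate (-1.73 ± 0.36, adjusted p = 0.00496). Sst, encoding somatostatin, measured 0 to 9.47 CPM against 8.62 to 22.9 CPM (-1.92 ± 0.47, adjusted p = 0.0172). Ghrl, encoding ghrelin, measured 9.95 to 49.1 CPM against 45.2 to 97.4 CPM and missed the threshold (-1.08 ± 0.32, adjusted p = 0.0565).

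Among genes of the enteroendocrine granule and its transcription factors, 4 of 21 tested members were called lower, 0 higher, with a median of -1.29. Chgb (chr2:132781278-132795079), a granin of secretory granules, measured 17.1 to 59.0 CPM (median 54.9) against 78.1 to 208 CPM (median 129) and was separate (-1.49 ± 0.30, adjusted p = 0.00400). Scgn (chr13:23953456-23991214), a calcium-binding protein of endocrine cells, had the most negative log2 fold change among called genes with a mean of at least 2 CPM, predicted genes aside (-2.82 ± 0.66, adjusted p = 0.0126). It measured 0 to 2.87 CPM against 5.40 to 13.2 CPM. Chga (-2.38 ± 0.67, adjusted p = 0.0448) and the prohormone convertase gene Pcsk1 (-1.29 ± 0.36, adjusted p = 0.0455) were also called, in 4 and 5 of the 14 fits that each left out 1 library. The count for the list was 2 without Lgr5-high replicate 1, 6 or 7 or Lgr5-low replicate 4, 6 or 7.

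Of 18 tested tuft cell genes 2 were called lower (median -0.89). Trpm5, the cation channel of tuft cell chemosensing, measured 0 to 5.52 CPM against 1.14 to 21.8 CPM (-2.66 ± 0.74, adjusted p = 0.0418), a call that held in 4 of 14 leave-one-out fits. Ltc4s, an enzyme of leukotriene synthesis, measured 2.31 to 9.47 CPM against 7.98 to 40.5 CPM (-1.58 ± 0.40, adjusted p = 0.0225). The Ltc4s call was lost without Lgr5-high replicate 2, 5 or 7 or Lgr5-low replicate 1 (adjusted p = 0.0537, 0.0585, 0.0582 and 0.0760).

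Paneth cell genes were mostly positive. The summed level of the list was 55382 to 183998 CPM in Lgr5-high libraries (median 89626). In Lgr5-low libraries it was 27121 to 119814 CPM (median 88127). The median log2 fold change was 0.26, 15 of 22 were positive, and 2 were called, both lower. These 2 were Xbp1, a transcription factor of ER folding (17.2 to 31.4 CPM against 33.5 to 55.8 CPM, -0.84 ± 0.22, adjusted p = 0.0241), and Guca2a, encoding guanylin, which goblet cells also express (281 to 963 CPM against 515 to 1418 CPM, -1.19 ± 0.30, adjusted p = 0.0278). The Guca2a call held in 7 of 14 leave-one-out fits, and the count for the list was 0 without Lgr5-high replicate 7 or Lgr5-low replicate 7, and 1 without Lgr5-high replicate 1, 2, 3 or 5 or Lgr5-low replicate 4. With a replicate block 3 of 22 Paneth members were called higher and 2 lower. With the cystine libraries alone and a replicate block, 6 of 21 were called higher and 2 lower. The alpha-defensins with the lowest p were Defa23 (1.17 ± 0.56, adjusted p = 0.311) and Defa30 (0.81 ± 0.51, adjusted p = 0.488). Defa30 ran from 5176 to 16922 CPM in Lgr5-high and 1621 to 8479 CPM in Lgr5-low libraries, with wide overlap. Values of single alpha-defensins depend on how reads of near-identical copies were divided.

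**Figure D3:**
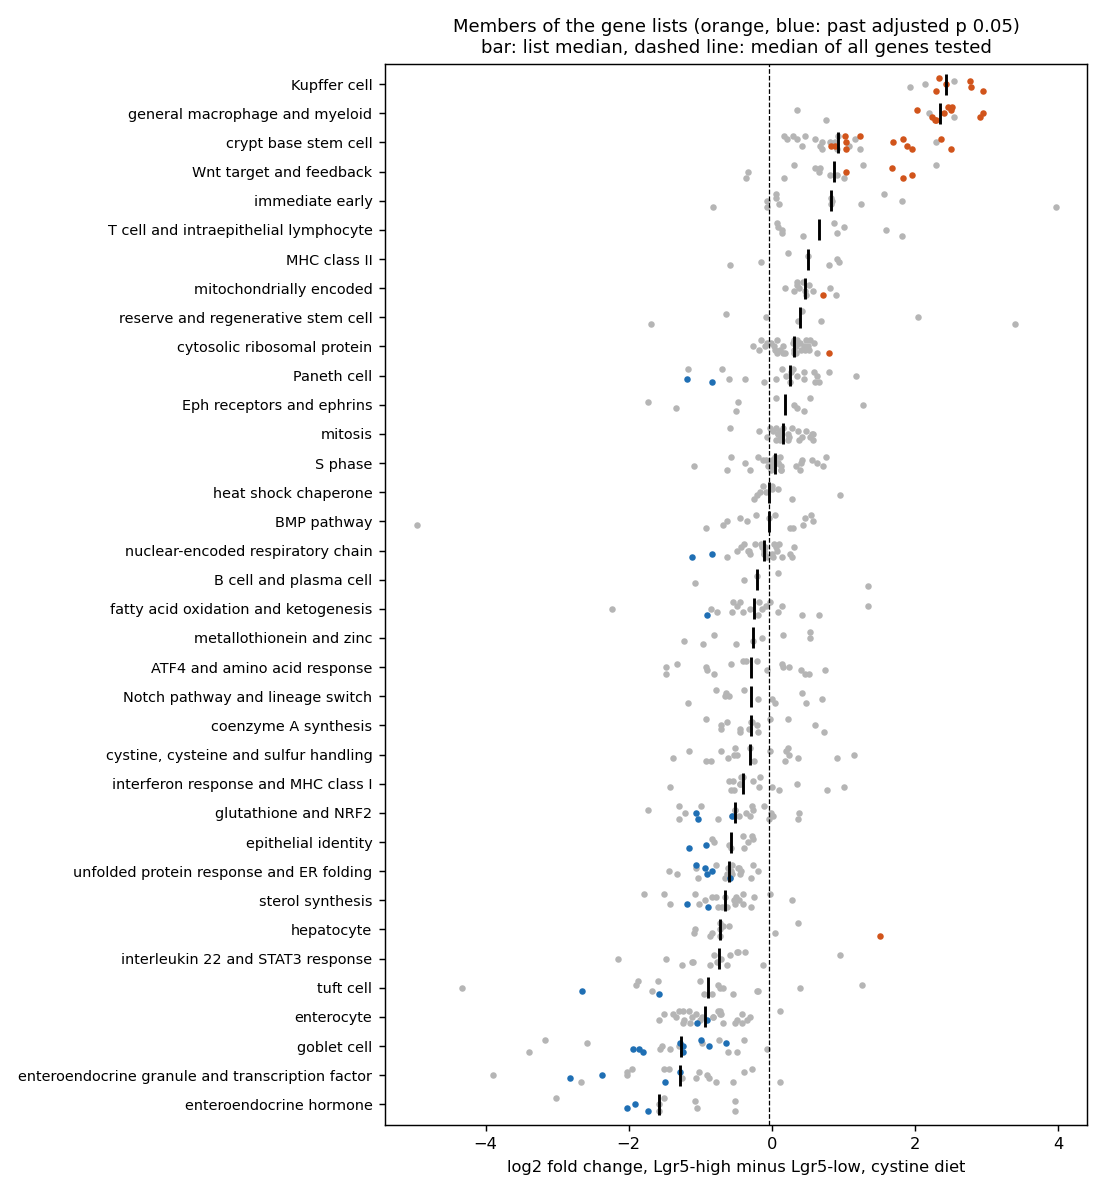
Log2 fold change (x axis, Lgr5-high minus Lgr5-low) of each tested member of 36 gene lists; orange and blue points are called higher and lower, grey points are not called. The black bar is the list median and the dashed line the median of all genes, -0.04; macrophage and stem cell lists lie to the right of it and the enteroendocrine, goblet and enterocyte lists to the left.

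Enterocyte genes were mostly on the negative side without passing one by one: 29 of 30 were negative, the median was -0.94, and 2 were called lower. Mttp, which loads lipid onto apolipoprotein B, measured 46.5 to 124 CPM against 82.1 to 305 CPM (-1.05 ± 0.27, adjusted p = 0.0304). Vil1, the actin bundler of microvilli, measured 55.6 to 208 CPM against 157 to 423 CPM (-0.90 ± 0.25, adjusted p = 0.0424). These calls held in 7 and 6 of 14 leave-one-out fits, and 0 enterocyte genes were called with the cystine libraries alone in the fit. Car4, a membrane-bound carbonic anhydrase, measured 10.8 to 79.5 CPM (median 29.0) against 55.5 to 311 CPM (median 165; -2.12 ± 0.46, adjusted p = 0.0116) and held in all 14.

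Epithelial identity genes had negative values throughout (11 of 11, median -0.57), and 2 were called, the keratins Krt19 and Krt8. Krt19 measured 26.9 to 70.0 CPM against 91.3 to 133 CPM and was separate in every library (-1.16 ± 0.20, adjusted p = 0.000935). Krt8 measured 171 to 564 CPM against 541 to 846 CPM (-0.92 ± 0.24, adjusted p = 0.0246), and that call held in 8 of 14 leave-one-out fits.

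Of 24 tested members of the unfolded protein response and ER folding list 5 were called lower and 0 higher. All 24 log2 fold changes were negative (median -0.60), and 19 of them did not pass. Pdia6 (chr12:17266545-17284770), a disulfide isomerase, measured 268 to 394 CPM (median 336) against 410 to 561 CPM (median 508) and was separate (-0.58 ± 0.14, adjusted p = 0.0134). P4hb (chr11:120560298-120573253), the classical protein disulfide isomerase, measured 77.7 to 186 CPM (median 123) against 180 to 307 CPM (median 217), with 1 library overlapping (-0.90 ± 0.21, adjusted p = 0.0143). Ssr1, a subunit of the translocon-associated complex, measured 16.4 to 68.8 CPM against 71.3 to 94.5 CPM (-0.93 ± 0.25, adjusted p = 0.0305), a call that held in 9 of 14 leave-one-out fits.

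Xbp1, described above, and Creld2, an ER chaperone-like protein (16.9 against 35 CPM on average, -1.05, adjusted p = 0.0417), were the other 2. The Xbp1 call was lost without Lgr5-high replicate 7 (adjusted p = 0.0580) and without Lgr5-low replicate 7 (adjusted p = 0.0691). The ER count fell to 2 without Lgr5-high replicate 7 and to 3 without Lgr5-high replicate 2 or Lgr5-low replicate 3, 6 or 7. It was 3 without the libraries under 5 M counts and 5 with only the cystine libraries of at least 5 M counts. Goblet transcripts had the same sign, with 22 of 22 negative, and their part in the ER result was not tested.

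The ER stress response element, to which factors of the unfolded protein response bind, was looked for in the 250 bases before the start of each gene of the list. Promoter windows of RefSeq (GRCm38.p6) were found for 20 of the 24 listed genes. The motif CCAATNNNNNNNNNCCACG, on either strand, was in 7 of these 20 windows and in 37 of all 32851 windows (0.113%). Below are the matches, each with 20 bases on either side, in the direction of transcription and with the motif in capitals; where the motif lies on the other strand the capitals read as its reverse complement.
Hspa5: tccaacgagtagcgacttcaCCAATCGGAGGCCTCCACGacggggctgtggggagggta
Calr: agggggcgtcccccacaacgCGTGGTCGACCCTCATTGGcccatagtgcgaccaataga
Hsp90b1: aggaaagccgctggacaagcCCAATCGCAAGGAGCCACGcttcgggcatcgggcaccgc
Hsp90b1: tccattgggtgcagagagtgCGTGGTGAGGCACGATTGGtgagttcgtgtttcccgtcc
Canx: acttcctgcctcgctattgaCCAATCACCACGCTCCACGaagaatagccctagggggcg
Pdia6: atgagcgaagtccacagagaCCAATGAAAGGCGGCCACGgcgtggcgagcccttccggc
Dnajc3: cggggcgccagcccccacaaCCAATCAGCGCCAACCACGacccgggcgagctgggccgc
Creld2: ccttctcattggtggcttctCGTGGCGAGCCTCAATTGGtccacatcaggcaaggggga

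These stretches lie at chr2:34772005-34772063 (plus strand, Hspa5), chr8:84847055-84847113 (minus, Calr), chr10:86705618-86705676 and chr10:86705513-86705571 (minus, Hsp90b1), chr11:50325780-50325838 (minus, Canx), chr12:17266471-17266529 (plus, Pdia6), chr14:118937807-118937865 (plus, Dnajc3) and chr15:88819500-88819558 (plus, Creld2). Of the 7 genes, Pdia6 and Creld2 were called lower. The chaperones Hspa5 (-0.66, adjusted p = 0.127), Hsp90b1 (-0.47, adjusted p = 0.149) and Calr (-0.57, adjusted p = 0.254), the lectin Canx (-0.29, adjusted p = 0.473) and the cochaperone Dnajc3 (-0.43, adjusted p = 0.478) had negative values that did not pass. The other called members, P4hb, Xbp1 and Ssr1, had no match in their windows. A match is a description of the sequence and not a site of binding. The list and the motif are both tied to the unfolded protein response by definition, so the share of matches is no separate result.

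This motif was 1 of 9 searched in 7 lists, 63 pairs in all, and it is shown because its share in the ER list exceeded its share in all windows by the largest ratio of the 63. The others were TCACNCCAC and its narrower form TCACCCCAC (sterol element), CTTTGAT and CTTTGAA (TCF/LEF), CAAAGTCCA (HNF4), TGACNNNGC (antioxidant element), and the parts CCAAT and CCACG of the motif above. CTTTGAT was in 2 of 27 windows of stem cell genes (Sp5 and Tnfrsf19), 2 of 19 of Wnt genes and 2 of 33 of glutathione genes, against 3.21% of all windows. TCACNCCAC was in 1 of 20 windows of sterol genes (Hmgcs1) and also in 1 of 20 ER windows, against 1.05%. CCAAT alone was in 16 of 20 ER windows and in 16 of 20 sterol windows, against 33.8% of all windows. CAAAGTCCA was in 3 of 27 enterocyte windows against 0.384%, and TGACNNNGC in 8 of 33 windows of glutathione genes and 5 of 20 ER windows, against 10.2%.

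Sterol synthesis genes were negative in 24 of 25 (median -0.66), with 2 called lower. Msmo1, a demethylase of cholesterol synthesis, measured 30.7 to 65.0 CPM against 65.1 to 111 CPM (-0.89 ± 0.22, adjusted p = 0.0224), and Cyp51, the lanosterol demethylase, 4.54 to 19.4 CPM against 20.5 to 28.9 CPM (-1.19 ± 0.34, adjusted p = 0.0476). Both were separate in every library, Msmo1 only narrowly. The Msmo1 call was lost without Lgr5-high replicate 2 (adjusted p = 0.0613) or Lgr5-low replicate 7 (adjusted p = 0.0654), and that of Cyp51 held in 3 of 14 fits. Hmgcs1 (-0.93 ± 0.31, adjusted p = 0.0988) and Fdft1 (-0.78 ± 0.26, adjusted p = 0.105), enzymes of the early pathway, did not pass.

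Genes of glutathione and of the NRF2 response were lower in 3 of 23 tested members, higher in 0 (median -0.51). Pgd (chr4:149149991-149166771), an NADPH-producing enzyme of the pentose phosphate pathway, measured 25.4 to 38.2 CPM (median 27.4) against 52.4 to 82.8 CPM (median 58.9) and was separate (-1.03 ± 0.18, adjusted p = 0.00105). Gpx1, which reduces peroxides with glutathione, measured 148 to 200 CPM against 220 to 287 CPM, also separate (-0.56 ± 0.13, adjusted p = 0.0143). Nqo1, a quinone reductase, measured 9.23 to 29.8 CPM against 24.2 to 62.8 CPM (-1.06 ± 0.28, adjusted p = 0.0299) and held in 9 of 14 fits. Nfe2l2, which encodes NRF2 itself, measured 86.4 to 130 CPM against 110 to 164 CPM (-0.51 ± 0.15, adjusted p = 0.0554).

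Genes that handle the dietary compound itself were not called. Of 19 tested genes of cystine, cysteine and sulfur handling 0 passed in either direction (median -0.30, range -1.39 to 1.14). Slc7a9, the light chain of the cystine transporter of the brush border, measured 3.60 to 45.7 CPM in Lgr5-high and 21.5 to 147 CPM in Lgr5-low libraries (-1.39 ± 0.47, adjusted p = 0.127). Slc3a2, the heavy chain of other amino acid exchangers, measured 6.49 to 50.1 CPM against 24.1 to 105 CPM (-0.93 ± 0.32, adjusted p = 0.125). Cth, which makes cysteine from cystathionine, measured 28.9 to 48.0 CPM against 42.4 to 68.9 CPM (-0.52 ± 0.19, adjusted p = 0.138), and Slc1a1, a carrier of glutamate and cysteine, had -1.16 ± 0.47 (adjusted p = 0.200). Slc7a11, the cystine importer of many cultured cells, did not pass the filter.

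Coenzyme A genes, another use of cysteine, were called in 0 of 15 (median -0.29), with Acss2 (0.73, adjusted p = 0.163), Nudt7 (-0.71, adjusted p = 0.207), Acsl5 (-0.72, adjusted p = 0.224) and Pank3 (-0.63, adjusted p = 0.344) at the lowest p. Genes of the interleukin 22 and STAT3 response were called in 0 of 16 tested, 15 of them negative (median -0.74). Il18 measured 23.4 to 87.3 CPM against 47.8 to 280 CPM (-1.25 ± 0.40, adjusted p = 0.0928), and the antimicrobial lectin gene Reg3a 25.2 to 104 CPM against 40.1 to 261 CPM (-1.10 ± 0.45, adjusted p = 0.222). Stat3 itself stood at -0.81 ± 0.38 (adjusted p = 0.293).

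Respiratory chain genes are encoded in part by the mitochondrial genome and in part by the nucleus, and the sets were not tested against each other. The 13 mitochondrially encoded messenger RNAs took 13.1% to 21.4% of counts in Lgr5-high and 11.9% to 13.6% in Lgr5-low libraries. The means were 16.9% ± 2.64 and 12.7% ± 0.594 (SD, n = 7), a difference of 4.20 percentage points (two-sided exact permutation test, p = 0.00117), with Lgr5-high replicate 5 alone in the range of the Lgr5-low libraries. All 13 log2 fold changes were positive (median 0.46). mt-Cytb passed (0.71 ± 0.17, adjusted p = 0.0138), but not without Lgr5-high replicate 2 (adjusted p = 0.0789) or 7 (adjusted p = 0.0513); the other 12 did not pass.

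Nuclear genes of the respiratory chain had a median of -0.12, with 10 positive and 17 negative, and 2 of 27 were called lower, 0 higher. Uqcrfs1 (chr13:30540308-30545362), the iron-sulfur subunit of complex III, measured 19.9 to 87.8 CPM against 107 to 141 CPM and was separate (-1.11 ± 0.20, adjusted p = 0.00119). Cox5a, a subunit of complex IV, measured 54.9 to 142 CPM against 96.2 to 207 CPM (-0.84 ± 0.18, adjusted p = 0.00614). Cytosolic ribosomal protein genes were positive in 28 of 34 (median 0.31), and 1 passed, Rpl23 (2105 to 3413 CPM against 1276 to 2125 CPM, 0.80 ± 0.16, adjusted p = 0.00280). Without the libraries under 5 M counts their median was 0.56, with 3 called. With only the cystine libraries of at least 5 M counts it was 0.56, with 14 called. Ribosomal protein genes have many near-identical processed copies, so their single values depend on the division of reads.

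The summed level of the general macrophage list was 307 to 880 CPM in 6 of the 7 Lgr5-high libraries, 63.0 CPM in replicate 1, and 81.3 to 246 CPM in Lgr5-low libraries. Predicted genes aside, the 12 largest positive log2 fold changes among called genes with a mean of at least 2 CPM belonged to Dnase1l3, Ccl7, C1qb, Csf1r, Clec4f, Cd5l, Il1b, Cd300c2, Treml4, Wfdc17, Cd300ld and Fcgr4, with values from 2.57 to 3.90. The calls of Dnase1l3, C1qb, Clec4f and Cd5l held in all 14 leave-one-out fits and those of Treml4, Wfdc17 and Cd300ld in 10. Those of Csf1r and Cd300c2 held in 5, of Ccl7 and Fcgr4 in 3 and of Il1b in 2. Several encode complement, chemokines and receptors of myeloid cells. In the general macrophage list 10 of 14 tested members were called higher (median 2.35), and in the list for Kupffer cells, the macrophages of the liver, 6 of 9 (median 2.44), with 0 lower in both. The macrophage count was 4 without Lgr5-high replicate 2 or 3 or Lgr5-low replicate 3, 5 or 6, 5 without Lgr5-high replicate 6 or 7 or Lgr5-low replicate 7, and 6 without Lgr5-low replicate 4. C1qb and C1qc are in both lists. Of the Kupffer list Clec1b, Timd4 and Marco were not called and Cd163 was not tested, and no member was at 0 in all 14 libraries. Lyz2, a called macrophage gene, shares sequence with the Paneth cell gene Lyz1.

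Clec4f (chr6:83644542-83656187), a lectin known from Kupffer cells, measured 1.33 to 126 CPM (median 75.5) in Lgr5-high and 6.76 to 18.5 CPM (median 7.3) in Lgr5-low libraries (2.78 ± 0.55, adjusted p = 0.00515). C1qb (chr4:136880129-136886187), a chain of complement C1q, measured 0.939 to 48.4 CPM (median 25.5) against 1.39 to 7.62 CPM (median 2.05; 2.94 ± 0.59, adjusted p = 0.00368). Cd68, a lysosomal protein of phagocytes, measured 5.24 to 97.3 CPM (median 68.7) against 6.79 to 26.2 CPM (median 7.74; 2.24 ± 0.44, adjusted p = 0.00286). In each of these genes 6 Lgr5-high libraries exceeded the highest Lgr5-low library and the other, replicate 1, lay below all of them. Folr2, the scavenger protein gene Cd5l, and the myeloid receptor adaptors Fcer1g and Tyrobp were called with log2 fold changes of 2.44, 2.77, 2.3 and 2.50 (adjusted p = 0.00614, 0.0110, 0.00147 and 0.00633).

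The summed level of the Kupffer cell list was 6.65 CPM in Lgr5-high replicate 1 and 118 to 436 CPM in the other 6 Lgr5-high libraries, and 20.1 to 84.8 CPM in Lgr5-low libraries. In control-diet libraries it was 18.7 to 39.4 CPM in Lgr5-high and 4.73 to 56.6 CPM in Lgr5-low. The 3 highest sums were in Lgr5-high replicates 2, 3 and 6, the 3 shallowest libraries of the 14. Without libraries under 5 M counts 0 Kupffer genes and 0 macrophage genes were called, with medians of 1.84 and 1.63. With only the cystine libraries of at least 5 M counts 0 and 1 were called, with medians of 1.83 and 1.62. Without the replicate 1 pair 8 and 11 were called, with medians of 2.73 and 2.59. With a replicate block 3 and 5 were called, with medians of 2.37 and 2.24. With the cystine libraries alone and a replicate block 0 and 1 were called, with medians of 2.37 and 2.25. Clec4f was called in neither of these blocked fits, and C1qb and Cd5l were not called in the one of cystine libraries alone. Within the female libraries 9 and 11 were called, with medians of 3.18 and 3.12. Within the male libraries 0 and 0 were called, with medians of 0.72 and 0.85. The male Lgr5-high cystine libraries, replicates 1 and 2, had Kupffer list sums of 6.65 and 273 CPM. Those of the male Lgr5-low cystine libraries were 59.2 and 84.8 CPM. In another fit a term for the mean log2 level of the Kupffer list genes was added to the model. With it the stem cell count was 9, the goblet count 7 and the ER count 2. Their medians were 0.98, -1.41 and -0.79. The part of depth and of sex class in the macrophage result was not tested beyond these values.

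**Figure D4:**
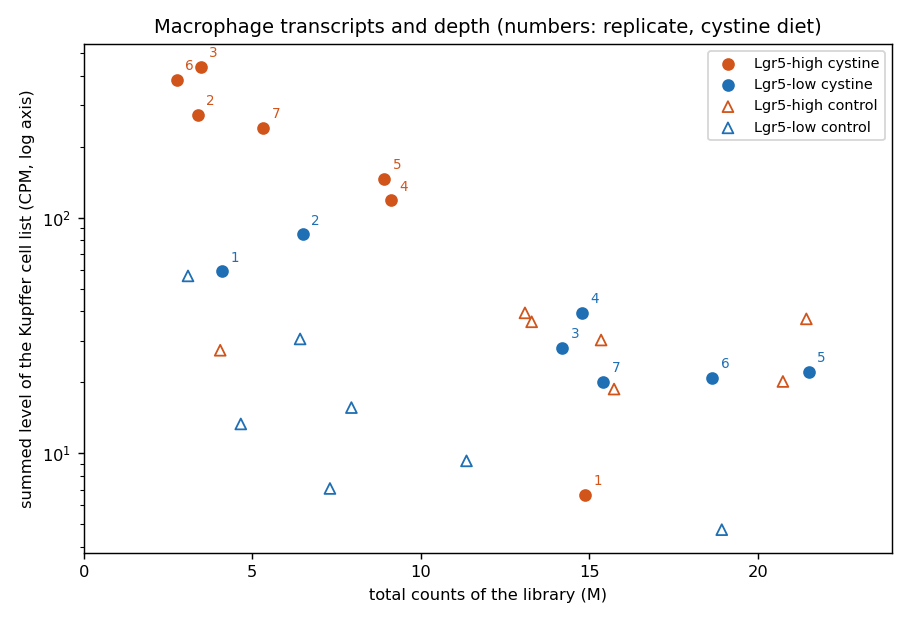
Summed level of the Kupffer cell list (y axis, CPM, log axis) against total counts (x axis, M) in all 28 libraries; filled circles are cystine-diet libraries with their replicate number and open triangles control-diet libraries, orange for Lgr5-high and blue for Lgr5-low. Lgr5-high cystine replicates 2 to 7 lie at 118 CPM or above and all other libraries at 84.8 CPM or below.

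Markers of other cells were looked at in the same way. Of 10 tested genes of T cells and intraepithelial lymphocytes 0 were called, all positive (median 0.65); the pan-leukocyte gene Ptprc measured 1.62 to 10.2 CPM against 0.154 to 2.40 CPM (1.82 ± 0.99, adjusted p = 0.384). Il22 was at 0 in all 14 libraries. Hepatocyte genes had a median of -0.72, with albumin (Alb) at 38.1 to 149 CPM against 80.4 to 354 CPM (-1.08 ± 0.36, adjusted p = 0.105). One hepatocyte gene was called higher, Cyp2e1 (chr7:140763739-140774987), an alcohol-oxidising cytochrome P450, at 91.2 to 237 CPM against 27.4 to 68.3 CPM, separate in every library (1.51 ± 0.29, adjusted p = 0.00280). Pecam1, an endothelial adhesion gene named after its values were seen, was 1 of 3 tested members of the stromal and endothelial list and the 1 called, lower (92.0 to 131 CPM against 135 to 313 CPM, -0.85 ± 0.18, adjusted p = 0.00618), while the endothelial markers Cdh5, Kdr and Vwf did not pass the filter. No member of the B cell (5 tested), erythrocyte (3) or pancreatic acinar (3) lists was called. The lists for reserve stem cells (8 tested), Notch (12), Eph receptors (10), BMP (15), ATF4 targets (18), metallothioneins (9), MHC class II (7), interferon (17), immediate early genes (13) and heat shock (10) also gave 0 calls.

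Other genes at the edges of the comparison had no list of their own. Among the lower genes named by size were Abat, which breaks down GABA (0.523 to 9.34 CPM against 12.9 to 42.1 CPM, -2.38 ± 0.40, adjusted p = 0.000829), Chst4, a sulfotransferase (0 to 5.59 CPM against 9.63 to 23.1 CPM, -2.31 ± 0.45, adjusted p = 0.00271), and Atp2a3, an ER calcium pump (1.05 to 5.98 CPM against 6.44 to 16.0 CPM, -2.17 ± 0.53, adjusted p = 0.0171). All 3 were separate in every library and called in all 14 leave-one-out fits. Mall, Cracd, Ankrd40cl, Hgfac and Adh4 completed the lower set, at -2.55, -2.53, -2.47, -2.12 and -2.11. Their calls held in 2, 2, 7, 5 and 7 of the 14 fits.

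Among higher genes chosen after their values were seen, Sycn (chr7:28540885-28542209), a protein of zymogen granules, measured 10.1 to 55.7 CPM against 2.59 to 9.27 CPM (2.14 ± 0.35, adjusted p = 0.000722). Rad51b, a DNA repair gene, measured 10.2 to 29.7 CPM against 3.96 to 9.64 CPM (1.67 ± 0.31, adjusted p = 0.00191). Ehf, an epithelial transcription factor of the ETS family, measured 155 to 257 CPM against 65.2 to 129 CPM (0.96 ± 0.17, adjusted p = 0.00106). Each of the 3 was separate in every library.

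The control-diet libraries give the same contrast in other samples. There 225 genes (1.8%) were called, 98 higher (0.784%) and 127 lower (1.02%). The difference between diets was tested for every gene and 0 of 12495 passed (0%, edgeR), with 415 at an unadjusted p below 0.05 and a smallest adjusted p of 0.493. DESeq2 also called 0 and limma-voom 5. Stem cell genes had a median of 0.92 on cystine and 1.13 on control diet, goblet genes -1.27 and -1.35, hormone genes -1.57 and -2.25, and ER folding genes -0.60 and -0.52. Lgr5 itself had 1.96 on cystine and 2.99 on control diet (difference -1.03, unadjusted p = 0.0804).

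Macrophage medians lay farther apart between diets. The Kupffer list had medians of 2.44 on cystine and 0.78 on control diet, and the macrophage list 2.35 and 0.43. An unadjusted p below 0.05 for the difference was found in 6 of 9 and 7 of 14 of their genes, and none passed adjustment. Cd68 had 2.24 on cystine and -0.14 on control diet (difference 2.38, unadjusted p = 0.000407), Tyrobp 2.50 and -0.01 (2.52, unadjusted p = 0.00153) and Fcer1g 2.3 and 0.24 (2.04, unadjusted p = 0.00124). Clta, a clathrin light chain, had 0.46 and -0.65 (1.11, unadjusted p = 0.000223), and Srgn, a proteoglycan of blood cell granules, 2.38 and -0.73 (3.11, unadjusted p = 0.00232). In the other direction stood Rgcc (0.50 and 2.60, unadjusted p = 0.000687), Orm1 (-1.42 and 0.85, 0.000975), Gstt1 (-0.70 and 0.26, 0.00192), Fam98b (-0.28 and 0.98, 0.00264) and Cabcoco1 (0.92 and 2.50, 0.00312).

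**Figure D5:**
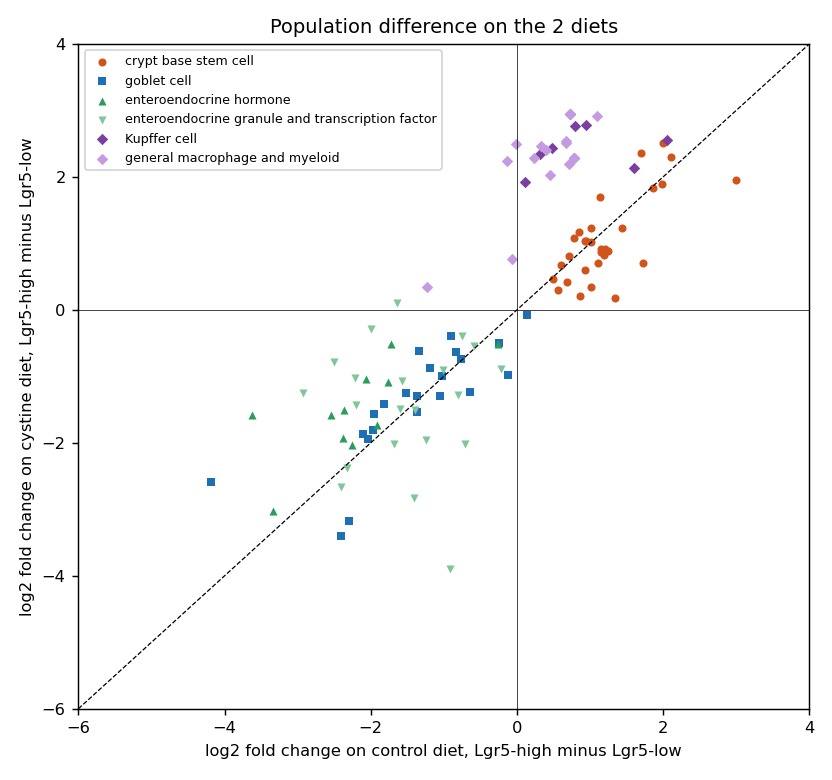
Log2 fold change, Lgr5-high minus Lgr5-low, on control diet (x axis) and on cystine diet (y axis) for tested members of 6 lists; each point is 1 gene and the dashed line marks equal values. Stem cell genes lie at upper right and goblet and enteroendocrine genes mostly at lower left, near the line, while most macrophage and Kupffer cell genes lie above it; no gene's difference between diets passed the test.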

How the data were processed

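Poly(A)-selected, strand-specific RNA sequencing libraries were compared. The authors deposited gene-level estimated counts (whole numbers, 54354 genes), made with Salmon 1.3.0 on build mm10 per the submitters' processing notes; how reads were trimmed, which annotation was used and how transcripts became genes is not given in the sources used here. Rows without a symbol (1243) held 0.00328% to 0.0111% of counts. Coordinates come from GENCODE M21 (GRCm38), in which 51528 gene IDs (94.8%) were found. Salmon divides reads among near-identical genes, so single values of alpha-defensins, Lyz1 and Lyz2, ribosomal protein genes, Gapdh and Ldha are uncertain.

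From these counts edgeR 4.0.16 (R 4.3.3) fitted 12495 genes that passed filterByExpr, with TMM factors, the 4 group means over all 28 libraries and the robust quasi-likelihood test, two-sided, with Benjamini-Hochberg adjustment over all genes at 0.05. Standard errors are the absolute log2 fold change divided by the square root of F. The common biological coefficient of variation was 0.629. Single values were compared by exact permutation over libraries. DESeq2 1.42.0, limma-voom (limma 3.58.1), another normalization, other filters, covariates and left-out libraries were the alternatives. The method was tested on simulated data.

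Members and lists were chosen with earlier results of these data known. Named genes were the 12 of largest change in each direction among called genes with a mean of at least 2 CPM, in each list described the 4 members with the lowest p, the 5 of lowest p in each direction for the difference between diets, and Lgr5 and Olfm4. Some results that these rules would name are not reported here, and 1 list is shown only in the plot of lists. Predicted genes were counted, not named (16 higher and 4 lower). Other named list members are called ones or carry a promoter motif. Of the 42 lists, 14 are given by counts alone, which was decided after values were seen. Also chosen after values were seen were 3 lists, the motifs and the genes Pecam1, Sycn, Rad51b, Ehf, Gkn3 and Ldhb.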

Additional observations from a re-analysis of the deposited data

Results flagged for a closer look

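Of 164 groups of 7 libraries checked for a single value far from the others, 19 were flagged by the gap to the nearest library as a share of the range, with a limit of 0.568. For normally distributed values chance flags about 1 in 20 groups. The CPM values were not log-transformed and many of the genes were named for their values, so that rate may not hold here. Among Lgr5-high libraries replicate 4 was high for Guca2a (963 CPM, group median 396), Agr2 (1476 CPM, median 642), Tff3 (2279 CPM, median 1187), Atp2a3 (5.98 CPM, median 1.41) and Pecam1 (131 CPM, median 101). Guca2a, Agr2 and Tff3 are expressed in goblet cells. Replicate 7 was high for Trpm5 (5.52 CPM, median 1.12), and replicate 1 was low for Chgb (17.1 CPM, median 54.9).

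Among Lgr5-low libraries replicate 1, the shallowest of them, was high for the stem cell genes Agr3 (21.0 CPM, median 10) and Gkn3 (547 CPM, median 183), and for Ltc4s (40.5 CPM, median 11.5), Rpl23 (2125 CPM, median 1531) and Pecam1 (313 CPM, median 174). Replicate 2 was high for the myeloid genes C1qb (7.62 CPM, median 2.05) and Treml4 (2.49 CPM, median 0.869), and for Dnase1l3 (1.61 CPM, median 0.538) and Abat (42.1 CPM, median 15.2). Replicate 4 was high for Ccl7 (2.02 CPM, median 0.358) and Cyp51 (28.9 CPM, median 22). Replicate 7 was high for the enterocyte gene Vil1 (423 CPM, median 191).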

How the results depend on the processing

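The 330 calls on cystine diet became 910 with limma-voom, 585 with DESeq2 and 619 with a sex term. They became 646 with only the cystine libraries of at least 5 M counts and 108 within the male libraries. The male contrast took 4 cystine libraries, in a fit that also held the male control-diet libraries. Leaving out 1 library gave 169 to 381, with 178 and 210 without Lgr5-high replicates 2 and 7, and 190 and 169 without Lgr5-low replicates 6 and 7. The other alternatives gave 225 to 453. Of the 330, 326 were also called by DESeq2 and 308 by limma-voom. Fewer of the 330 were called with the Kupffer list term (165, of 233 calls) and without libraries under 5 M counts (170, of 279 calls). With only the cystine libraries of at least 5 M counts 219 of them were called, and 216 and 58 within the female and male libraries. For the difference between diets the count of 0 became 5 with limma-voom, 1 with the Kupffer list term and 1 without libraries under 5 M counts, and ranged from 0 to 1 over left-out libraries. It was 1 without Lgr5-high cystine replicate 1 or 6 or Lgr5-low cystine replicate 1. The log2 difference in total counts ranged from -1.31 to -0.88 over left-out libraries and passed 0.05 in 5 of them, without Lgr5-high replicate 1, 4 or 5 (-1.28, -1.17 and -1.16) or Lgr5-low replicate 1 or 2 (-1.31 and -1.20); the difference in mitochondrial share ranged from 3.45 to 4.83 points. The cause of these moves was not tested.

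With a replicate block the count was 453 on cystine diet, 444 with the cystine libraries alone, and 0 for the difference between diets; the exact sign-flip p was 0.0156 for the mitochondrial share (difference 4.20 points) and 0.109 for total counts (-1.05). Deviations of same-numbered cystine libraries correlated from -0.0778 to 0.165, and 3 of 7 numbers (1, 3 and 5) correlated best with their own. On control diet numbers 1, 3, 4 and 6 did so. Within each diet, same-numbered libraries of the populations also had the same sex class for every number. The labels do not say what the numbers mark, so the main test did not pair libraries. Whether the numbers mark pairs was not settled.

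Of 136 named genes 80 were called, 49 of them in all 14 fits that left out 1 library and 11 under every setting run. Signs turned in 7 cases: with the Kupffer list term Clec4f (-0.23), Cd5l (-0.11), Il1b (-0.12), Wfdc17 (-0.14) and Folr2 (-0.11), and Fam98b with only cystine libraries of at least 5 M counts (0.11) and without libraries under 5 M counts (0.10). Clec4f, Cd5l and Folr2 are members of the list from which the Kupffer term was made. The term takes up their own difference, so their turn is no separate result. In the lists given by counts alone, 15 of the 51 unnamed members of lowest p, none of them called, changed sign, 38 times in all. The alternatives without the replicate 1 pair and with only cystine libraries of at least 5 M counts were chosen after seeing the data. Shallow libraries limit genes at a few CPM most.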

Other observations

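Of 17 tested members of a glycolysis list made after values were seen, 8 were called lower and 0 higher, 14 were negative and 3 positive (median log2 fold change -0.53, against -0.04 for all genes, and -0.48 on control diet). Aldoa, the muscle-type aldolase, measured 67.5 to 101 CPM in Lgr5-high against 130 to 219 CPM in Lgr5-low libraries (-1.02 ± 0.15, edgeR adjusted p = 0.000151). Gapdh measured 235 to 398 CPM against 505 to 724 CPM (-0.89 ± 0.15, edgeR adjusted p = 0.000829). Pfkp, a phosphofructokinase, was at -1.47 (edgeR adjusted p = 0.00119), and the lactate dehydrogenase gene Ldha at -0.96 (edgeR adjusted p = 0.00210). Ldhb, a lactate dehydrogenase gene named after its values were seen, had a positive value of 1.91 ± 0.75 with every Lgr5-high library above every Lgr5-low library, and did not pass (edgeR adjusted p = 0.183). DESeq2 called 8 lower and 1 higher. The count of lower calls was 5 without Lgr5-high replicate 2 or 5 or Lgr5-low replicate 2, 6 or 7. It was 4 without the libraries under 5 M counts, 7 with only the cystine libraries of at least 5 M counts, and 1 within the male libraries.

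A list of translocon, N-glycosylation and vesicle coat genes, made in the same way, had 12 of 33 called lower and 0 higher (median -0.53). Surf4, a cargo receptor of ER export, measured 31.2 to 48.6 CPM against 63.2 to 99.9 CPM (-1.08 ± 0.17, edgeR adjusted p = 0.000432). Lrrc59 (-0.88), and Stt3a (-0.72) and Rpn1 (-0.84), subunits of the oligosaccharyltransferase, were also called. Hosts of small nucleolar RNAs went the other way, with 3 of 13 called higher and all 13 positive (median 0.69): Gas5 at 433 to 886 CPM against 236 to 356 CPM (1.09 ± 0.20, edgeR adjusted p = 0.00119), Zfas1 (1.24) and Snhg20 (1.24), whose call held in 10 of 14 leave-one-out fits.

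In raw counts, the Kupffer list summed to 783 to 1669 in Lgr5-high cystine replicates 2 to 7, whose total counts ran from 2.75 to 9.12 M. It summed to 85 in replicate 1, to 206 or more in Lgr5-low cystine libraries (median 499), all below replicates 2 to 7 of the Lgr5-high group, to 108 to 748 in Lgr5-high control libraries and to 62 to 191 in Lgr5-low control libraries.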
